A study of Mus musculus with 2 samples.

Results

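The genes described here are 10 mouse messenger RNAs that other studies established as targets of microRNA-200b: Zeb1, Zeb2, Cfl2, Rnd3, Ets1, Msn, Qki, Sec23a, Suz12 and Wasf3. They were listed by name, and the rule uses no measured value. Of the 32285 genes in the deposited matrices, 9 were found under these symbols, and Qki was found through its synonym Qk. Together they gave 57689 UMIs (unique molecular identifiers, each standing for 1 captured RNA molecule) in 5178 barcodes of the control library, and 34453 UMIs in 5258 barcodes of the induced library.

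Both libraries came from the dorsal skin of 3-day-old mice (postnatal day 3), with the 3′ ends of polyadenylated RNA counted in single cells. The control library has the genotype Wildtype and the induced library the genotype miR-200b induced, and both carry the treatment Dox. The labels give neither the induction construct, the cell type that drives it, nor the number of animals. Epidermal and dermal cell suspensions were mixed 30 to 70 before loading. There was 1 library per genotype, so each difference below separates these libraries only, no test between genotypes was possible, and every interval covers counting error alone.

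MicroRNAs are short RNAs that guide Argonaute proteins to messenger RNAs, mostly through pairing of the microRNA's seed, the bases near its 5′ end, with the 3′ untranslated region (UTR). A paired message is translated less and is often degraded sooner. The microRNA-200 family is known for holding epithelial cells in the epithelial state by repressing the transcription factors ZEB1 and ZEB2, which in turn repress the family's own genes. Its other established targets act in the actin cytoskeleton, in RNA processing, in secretion and in Polycomb silencing.

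The mature family members are shown because the seed decides which targets they share. Their sequences are from RefSeq on GRCm38.p6, 5′ to 3′, with bases 2 to 8 (the seed) in capitals. The first 3 share 1 seed and the last 2 share another.
miR-200b-3p: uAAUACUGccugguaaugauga
miR-200c-3p: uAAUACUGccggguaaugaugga
miR-429-3p: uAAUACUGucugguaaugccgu
miR-200a-3p: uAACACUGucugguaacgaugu
miR-141-3p: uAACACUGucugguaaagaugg
In GRCm38.p6, miR-200b-3p lies at chr4:156055685-156055706 on the minus strand.

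A message that pairs with the microRNA-200b seed carries the 7 bases CAGTATT in its 3′ UTR, and an A after them makes an 8-base match. For 9 members, 1 window each is printed from the GENCODE vM21 transcripts (GRCm38), read 5′ to 3′ on the message, with the 7-base match in capitals. An 8-base match was chosen for print wherever the gene had such a match, so the last base is its A in every window except that of Ets1. In the Ets1 window 2 matches stand back to back and the lower-case bases hold the other match. Several further matches of these genes lack the A.
Zeb2: gcactacagtgcatCAGTATTa
Cfl2: tgggagacttgtttCAGTATTa
Rnd3: cattatgctttgggCAGTATTa
Ets1: tggtctcagtattgCAGTATTg
Msn: atgtaagaagatttCAGTATTa
Qki: gacttttttcctgaCAGTATTa
Sec23a: ggttcttactgagaCAGTATTa
Suz12: tgtgacttgtcatcCAGTATTa
Wasf3: caccaggaaactcgCAGTATTa
All of them lie in 3′ UTRs. The Cfl2 window is at chr12:54860748-54860769 (minus strand), that of Msn at chrX:96168093-96168114 (plus), that of Qki at chr17:10207044-10207065 (minus) and that of Sec23a at chr12:58959129-58959150 (minus).

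**Figure D1:**
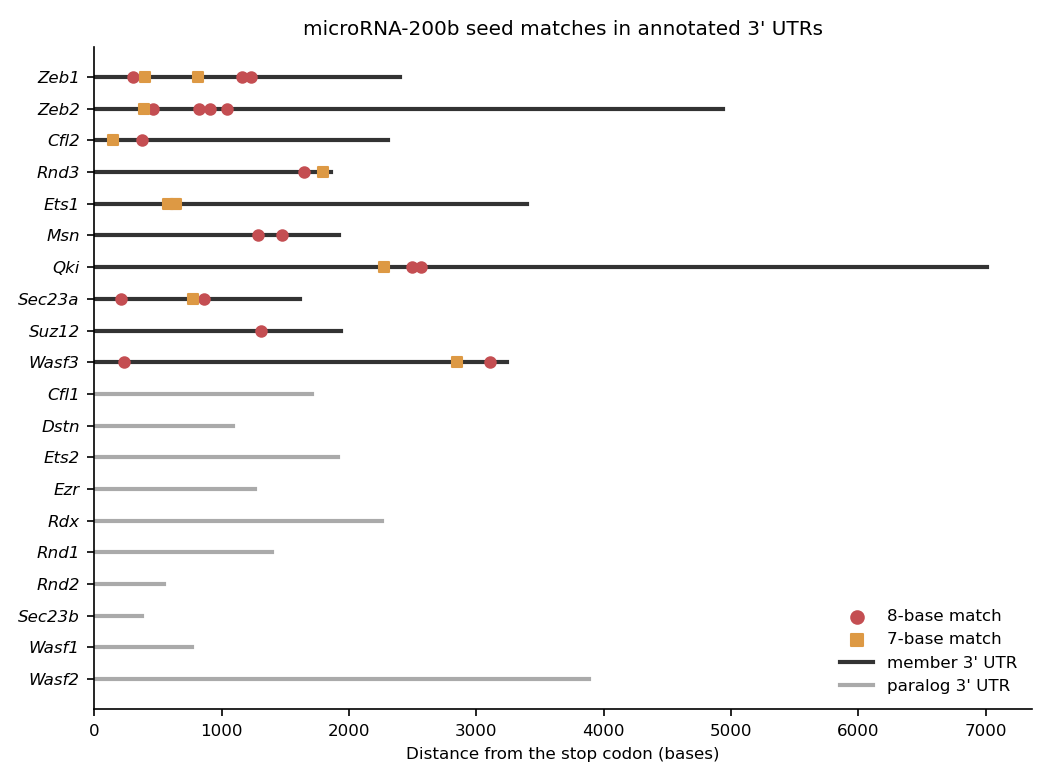
Each line is an annotated 3′ UTR of a member (dark) or of a paralog (grey), drawn from the stop codon to its end in bases on the transcript of the gene with the most matches, with 8-base matches as red circles and 7-base matches as orange squares. All 10 members hold at least 1 match and the 10 paralogs hold 0.

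Over all annotated coding transcripts of a gene, Zeb2 held 6 matches, Zeb1 and Qki held 5 each, Ets1, Sec23a and Wasf3 held 3 each, Cfl2, Rnd3 and Msn held 2 each, and Suz12 held 1. For Zeb2 and Qki the map shows fewer, since single transcripts hold fewer than the union. Among 20856 genes with an annotated 3′ UTR, 14.0% held the 7-base match. All 10 members held it, and 9 of them, all but Ets1, held the 8-base match CAGTATTA, which 3.39% of genes had. The members have long 3′ UTRs, with a median of 2354.5 bases for the longest one against 965 bases over all genes. Among the 6920 genes with a 3′ UTR at least as long as the shortest of the members, 28.9% held the 7-base match. The other seed of the family matches CAGTGTT, which 6 of the members and 18.1% of genes held. The members' nearest relatives gave a contrast: Cfl1, Dstn, Rnd1, Rnd2, Ets2, Ezr, Rdx, Sec23b, Wasf1 and Wasf2 all held 0 matches to CAGTATT. A match is a description of these letters and not a measured site.

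After filtering and removal of doublets, 4816 control and 4890 induced cells were kept. Barcodes over the mitochondrial limit, a sign of cell quality, numbered 823 in the control and 1678 in the induced library, and the part of this in the differences was not tested. The cells were sorted into classes by marker genes with the members left out of the clustering, and "-like" is meant with each class name. The epithelial class held 3941 control and 3894 induced cells, the mesenchymal class 660 and 442, the endothelial class 63 and 67, and the melanocyte class 79 and 238. Median depth was 16092 and 21893 UMIs in epithelial cells, and 9119.5 and 5042.5 UMIs in mesenchymal cells. The libraries shared 74 barcodes, 8 of them among kept cells. Levels are given as CPM, UMIs of a gene per 1000000 UMIs of the class in that library, with exact Poisson 95% intervals. Gm13648, an annotated transcript that spans the Mir200b, Mir200a and Mir429 genes, stood at 2.229 CPM in control and 530.1 CPM in induced epithelial cells. In mesenchymal cells it had 0 UMIs in control (which allows up to 0.471 CPM, the level of 3 counts) and stood at 25.03 CPM in induced cells. That was 4.72% of the epithelial level, beside 4.69% for the sum of 18 epithelial markers in the same cells. Carry-over from epithelial cells and low expression cannot be told apart here, and the mesenchymal value is not read as expression. In endothelial cells the shares were 3.26% and 2.72%, from 14 UMIs of Gm13648, and in melanocytes 1.35% and 3.27%.

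The ZEB factors were genes of the non-epithelial classes in both libraries. Zeb1, a zinc-finger repressor of epithelial genes (ENSMUSG00000024238), was highest in endothelial cells, at 126.5 CPM (106.7 to 149) in control and 132.3 CPM (108.4 to 159.8) in induced cells. It stood at 74.55 and 66.74 CPM in mesenchymal cells and at 38.97 and 31.77 CPM in melanocytes. In epithelial cells it had 8 UMIs in control and 9 in induced cells, or 0.1037 CPM (0.0448 to 0.204) and 0.0919 CPM (0.042 to 0.174). The epithelial level was 0.139% of the mesenchymal level in control and 0.138% in induced cells. Fibroblast genes had like shares: Col1a1 in epithelial cells was at 0.109% and 0.116% of its mesenchymal level, and Col1a2 at 0.136% and 0.107%. Col3a1 was at 0.102% and 0.0808%, and Lum at 0.0904% and 0.103%. Zeb1 lay above each of these in both libraries. Dcn, another fibroblast gene, stood higher, at 0.89% and 0.629%. A share at or below that of Dcn, the highest of these genes, is read as background and not as expression, and its source was not tested.

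Zeb2, the paired factor (ENSMUSG00000026872, chr2:44983632-45117395, minus strand), was ordered differently. Among the classes with at least 30 cells in both libraries it was highest in a mesenchymal cluster led by Ebf1, Rspo3 and Inhba, at 1685 and 1460 CPM, with pericytes and smooth muscle at 1081 and 1068 CPM. Fibroblasts stood at 850.1 and 1166 CPM, below pericytes in control and with an interval that overlapped theirs in induced cells, melanocytes at 348.6 and 470.9 CPM, and endothelial cells, the highest class for Zeb1, at only 31.63 CPM (22.16 to 43.79) and 35.85 CPM (24.01 to 51.48). The 2 factors thus had opposite orders between endothelial cells and melanocytes, with intervals apart in both libraries. Epithelial cells held 87 and 82 UMIs, or 1.127 and 0.837 CPM, which were 0.124% and 0.0931% of the mesenchymal level and again at the share of the collagens. At 2000 UMIs per cell, 80.6% of control and 77.4% of induced mesenchymal cells had a Zeb2 UMI, against 0.0768% and 0.156% of epithelial cells. Without thinning these shares were 98.0% and 91.2% of mesenchymal cells, and 1.24% and 1.41% of epithelial cells.

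Of the actin regulators, Cfl2 and Msn were present in every class compared. Cfl2, a cofilin that severs actin filaments (ENSMUSG00000062929, chr12:54858809-54862877, minus strand), stood at 146.1 and 137.1 CPM in mesenchymal cells, 124.8 and 111.2 CPM in endothelial cells, and 133.3 and 139.9 CPM in melanocytes. These 6 values lay within 111 to 147 CPM, and the intervals of neighbouring classes overlapped. Epithelial cells were below all of them, at 78.38 CPM (76.41 to 80.38) in control and 28.43 CPM (27.39 to 29.51) in induced cells.

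Msn encodes moesin, which links actin to the cell membrane (ENSMUSG00000031207, chrX:96096042-96168552, plus strand). It was highest in endothelial cells, at 549.2 CPM (507 to 594) and 504.3 CPM (456.6 to 555.7). Melanocytes stood at 278.9 and 205.5 CPM and mesenchymal cells at 161.5 and 145.8 CPM. Epithelial cells had the lowest level, 105.2 CPM (102.9 to 107.5) in control and 41.55 CPM (40.28 to 42.84) in induced cells. Within the epithelium it varied by a wider factor than between classes: outer hair follicle cells had 163 CPM in control, basal epidermis 107.5, suprabasal epidermis 26.07 and sebaceous gland cells 8.126 CPM.

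Rnd3, which opposes actomyosin contraction (ENSMUSG00000017144), was lowest in endothelial cells, at 11.42 CPM (6.082 to 19.53) and 9.889 CPM (4.269 to 19.48). Mesenchymal cells had 81.77 and 95.34 CPM, epithelial cells 61.16 and 44.79 CPM, and melanocytes 51.27 and 59.96 CPM. Wasf3, a WAVE protein that promotes branched actin (ENSMUSG00000029636), was near the detection limit throughout. It had 22 and 6 UMIs in mesenchymal cells, or 3.453 and 2.384 CPM, and 0 UMIs in control epithelial cells, which allows up to 0.0389 CPM. Induced epithelial cells had 6 UMIs, 5 of them in the hair matrix cluster.

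Ets1, a transcription factor of endothelial and blood cells (ENSMUSG00000032035, chr9:32636221-32757820, plus strand), was highest in endothelial cells. They had 409.5 CPM (373.1 to 448.4) and 424 CPM (380.3 to 471.3). Pericytes and smooth muscle had 212.5 and 273.1 CPM, and melanocytes 196.9 and 267 CPM, with overlapping intervals in each library. Fibroblasts had 38.77 and 34.33 CPM, and epithelial cells 2.358 and 1.878 CPM. The epithelial level was 3.75% of the mesenchymal level in control and 2.90% in induced cells. That is more than 20 times the share of Col1a1, and nearer to that of Dcn, at 0.89% and 0.629%. Of the endothelial level it was 0.576% and 0.443%, and the source of these epithelial counts was not tested.

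Qki encodes quaking, an RNA-binding regulator of splicing and message stability (ENSMUSG00000062078, chr17:10202601-10319854, minus strand). Melanocytes had 478.9 CPM (436.4 to 524.3) and 526.3 CPM (494.6 to 559.5), endothelial cells 308.4 and 356 CPM, and mesenchymal cells 153.5 and 215.7 CPM. Schwann cells, a small class of 31 and 17 cells, were higher still at 914.4 and 1078 CPM. Epithelial cells were lowest of these, at 130.1 CPM (127.5 to 132.6) in control and 46.22 CPM (44.89 to 47.59) in induced cells.

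Sec23a, a subunit of the COPII coat that carries collagen and other cargo out of the endoplasmic reticulum (ENSMUSG00000020986, chr12:58958383-59012017, minus strand), was highest in fibroblasts. They had 99.15 CPM (90.73 to 108.2) in control and 49.68 CPM (37.43 to 64.67) in induced cells. Endothelial cells had 29.0 and 13.6 CPM, and melanocytes 9.229 and 9.737 CPM. Epithelial cells had 14.33 CPM (13.5 to 15.2) in control and 5.705 CPM (5.242 to 6.198) in induced cells.

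Suz12, a core subunit of Polycomb repressive complex 2, which methylates histone H3 (ENSMUSG00000017548), was the flattest member across classes. Its levels were 69.99 and 52.08 CPM in epithelial, 46.77 and 43.7 CPM in mesenchymal, 77.33 and 60.57 CPM in endothelial cells, and 48.2 and 49.2 CPM in melanocytes. Inside the epithelium, hair matrix cells had 117.5 and 79.29 CPM. Of the clusters led by cell-division genes, one of 405 control cells had 119.4 CPM (112.4 to 126.7), and the other, of 86 control and 198 induced cells, had 100.8 CPM (88.54 to 114.3) and 98.62 CPM (90.94 to 106.8).

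**Figure D2:**
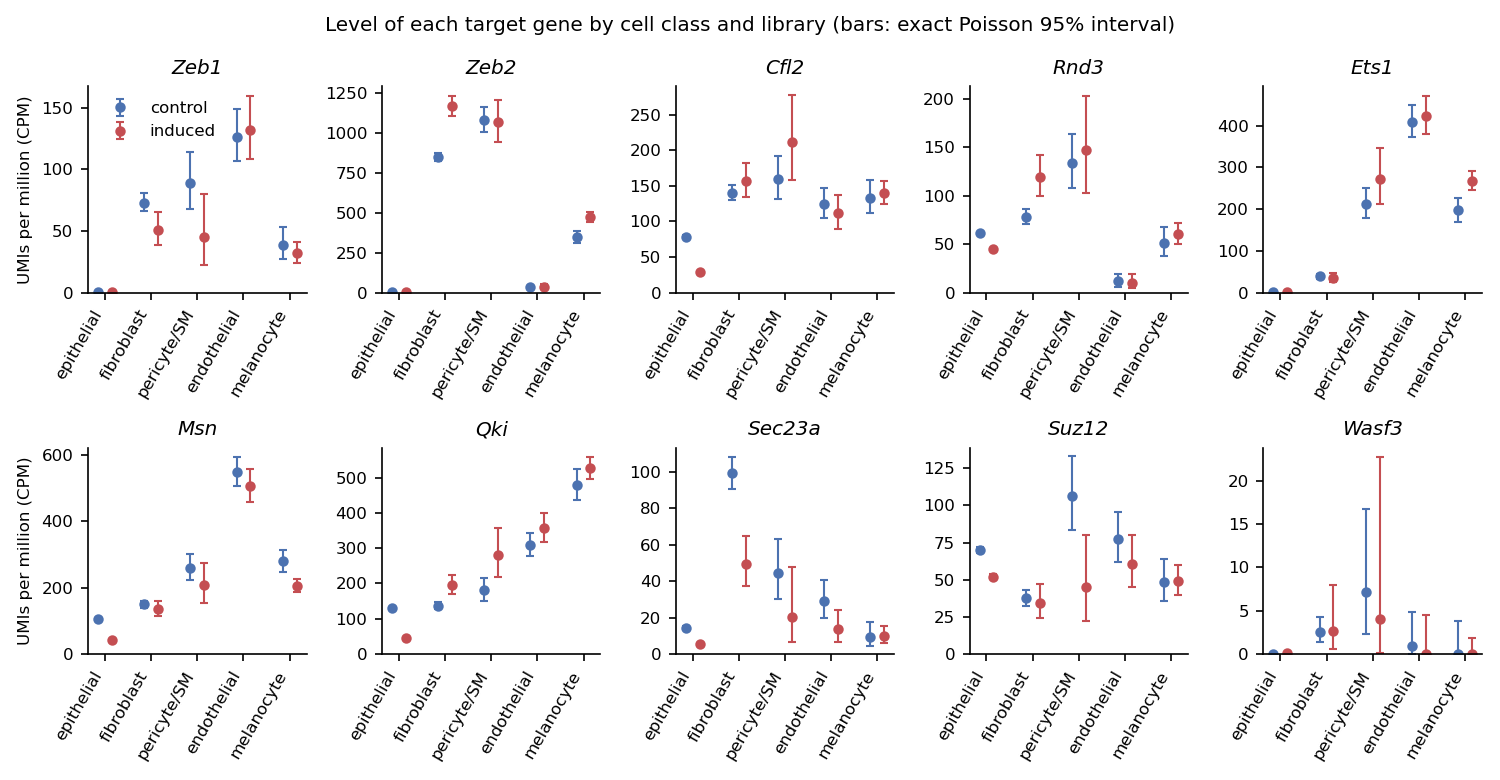
Each panel plots the level of 1 target gene in CPM (vertical axis, linear and from 0) for 5 cell classes in the control library (blue) and the induced library (red), with exact Poisson 95% intervals as bars. Zeb1, Zeb2 and Ets1 are near 0 in epithelial cells of both libraries, while Cfl2, Msn and Qki are at 78.38, 105.2 and 130.1 CPM in control epithelial cells and at 28.43, 41.55 and 46.22 CPM in induced ones.

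A fixed limit was then set on the class order: at least 2-fold above epithelial cells in both libraries, on CPM with 5 CPM added. For mesenchymal cells, 14.0% of 5911 genes that averaged at least 20 CPM passed it, and so did 4 of the 9 members tested (Zeb1, Zeb2, Ets1 and Sec23a). For endothelial cells 16.1% of genes passed, and 4 of 7 members (Zeb1, Ets1, Msn and Qki). For melanocytes 9.87% passed, and 4 of 7 members (Zeb2, Ets1, Msn and Qki). Zeb1, Zeb2, Ets1 and, against mesenchymal cells, Sec23a met the 20 CPM mean only through the class in which they are high, so their place in these counts was largely set by the filter and nothing is read from the shares. In control cells the mesenchymal level was 719-fold the epithelial level for Zeb1, 803-fold for Zeb2, 26.7-fold for Ets1 and 6.28-fold for Sec23a. For Zeb1 and Zeb2 these folds divide by epithelial counts read as background, 8 UMIs for Zeb1, so their size is not read. It was 1.86-fold for Cfl2, 1.53-fold for Msn, 1.34-fold for Rnd3 and 1.18-fold for Qki, and below 1 for Suz12, at 0.668-fold. In the induced library the folds of the middle group were larger, at 4.82 for Cfl2, 4.67 for Qki and 3.51 for Msn and 2.13 for Rnd3, and these members were then past 2-fold in that library alone.

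The comparison between the libraries asks what stood different where microRNA-200b was induced. In epithelial cells 4 members were at least 2.5-fold lower in the induced library: Qki, Cfl2, Msn and Sec23a. No share of all genes was taken at 2.5-fold. At least 2-fold lower with 5 CPM added were 4.23% of the 5858 genes that averaged at least 20 CPM, a filter that Sec23a did not reach. The log2 ratio of induced over control was -1.49 for Qki (-1.54 to -1.44), from 10039 and 4529 UMIs. It was -1.46 for Cfl2 (-1.53 to -1.40), from 6049 and 2786 UMIs, and -1.34 for Msn (-1.40 to -1.29), from 8121 and 4071 UMIs. For Sec23a it was -1.33 (-1.48 to -1.18), from 1106 and 559 UMIs. These 4 genes act in different places, in RNA processing, actin turnover, membrane linkage and secretion. The makeup of the class differed as well: 9 suprabasal markers summed to 14730 and 22410 CPM and 10 sebaceous markers to 2666 and 141.5 CPM, none at 0. Levels within the clusters shared by both libraries bear on this more closely than the whole class.

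A second group was lower by less. Rnd3 had a log2 ratio of -0.45 (-0.51 to -0.39), Suz12 of -0.43 (-0.48 to -0.37) and Ets1 of -0.33 (-0.63 to -0.025), the last from 182 and 184 UMIs. The Ets1 call was lost relative to the median gene (-0.22, -0.53 to 0.080), with totals without the most abundant genes (-0.26, -0.57 to 0.041) and after thinning (-0.42, -1.52 to 0.66), and 6 members were then lower. The intervals of both ZEB factors spanned 0, at -0.43 (-0.88 to 0.022) for Zeb2 and -0.17 (-1.72 to 1.40) for Zeb1. With doublets kept, Zeb2 was below 0 (-0.58, -0.96 to -0.20), and after thinning it was at 0.61 (-1.47 to 2.88). With background-level counts in both libraries, no difference in epithelial Zeb1 or Zeb2 could be read at this depth. The median gene of the epithelial class was at -0.105. Set against that gene, Qki stood at -1.39, Cfl2 at -1.36, Msn at -1.24, Sec23a at -1.22, Rnd3 at -0.34, Suz12 at -0.32 and Ets1 at -0.22.

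The share of cells with a UMI was lower for these 4 members. At 2000 UMIs per cell, Qki was seen in 24.7% (23.3 to 26.0) of control and 10.6% (9.60 to 11.6) of induced epithelial cells, and Cfl2 in 15.1% (14.0 to 16.3) and 6.15% (5.41 to 6.96). Msn was seen in 20.3% and 9.59%, and Sec23a in 3.02% and 1.28%. Without thinning the shares for Qki were 81.7% and 62.1%. For Rnd3 they were 10.8% and 9.61% with thinning and 49.9% and 51.2% without.

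At this depth most genes stood apart between the libraries beyond counting error. Of the 5858 genes that averaged at least 20 CPM in epithelial cells, 55.5% had an interval wholly below 0, and so did 7 of the 10 members (the 5 that passed this filter, and Ets1 and Sec23a). An interval wholly above 0 was found for 33.4% of genes and for 0 members. The size of the difference separates the genes more: 4.23% of the 5858 genes were at least 2-fold lower with 5 CPM added, and Cfl2, Msn and Qki were 3 of the 5 members that passed the filter. The share at least 1.5-fold lower was 13.2%, with the same 3 members, and 6.35% were at least 1.5-fold higher, with 0 of the 5. The median of these 5 members was -1.24, beside -0.105 over all genes. Zeb1, Zeb2, Ets1, Sec23a and Wasf3 did not reach the filter.

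**Figure D3:**
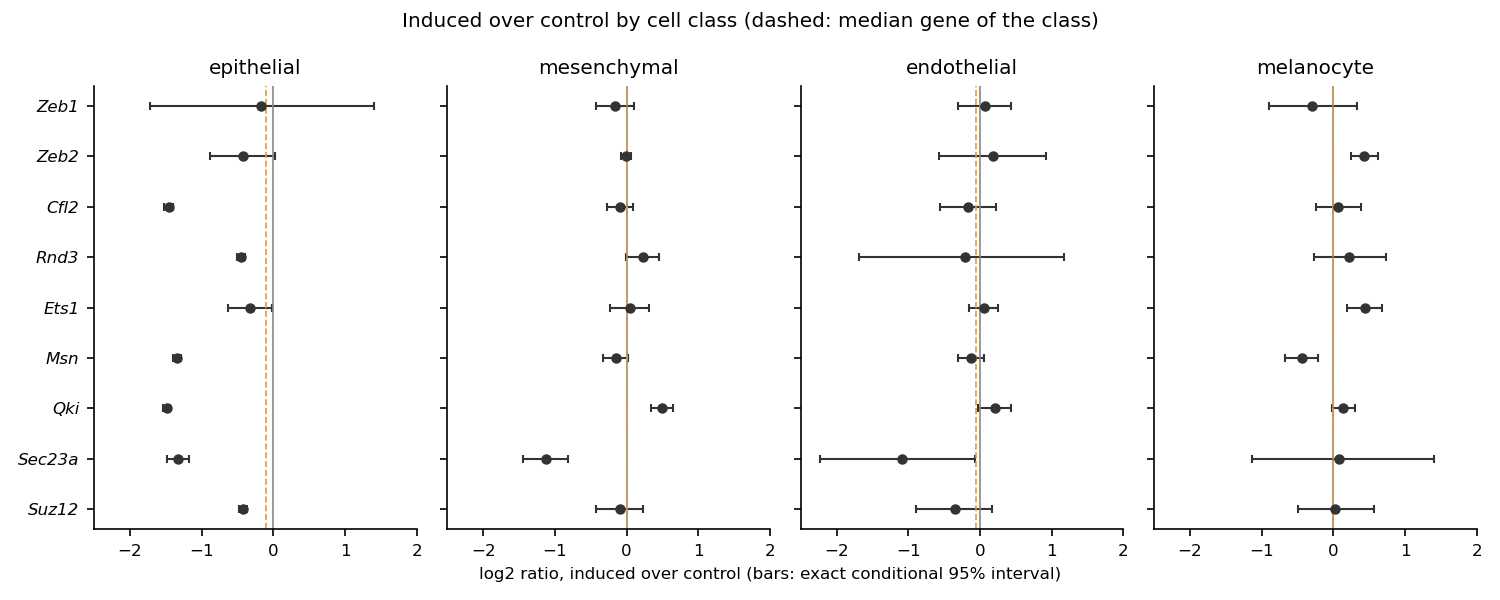
Each panel plots, for 1 cell class, the log2 ratio of induced over control for 9 members (points) with exact conditional 95% intervals (bars), the grey line marking 0 and the dashed line the median gene. Cfl2, Msn, Qki and Sec23a lie between -1.49 and -1.33 in epithelial cells, while Cfl2 spans 0 and Qki is not lower in the other classes. Sec23a is lower in mesenchymal and endothelial cells as well, and Msn in melanocytes. Wasf3, with 0 control UMIs in epithelial cells, is not drawn.

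The paralogs, relatives in protein function without the 7-base match CAGTATT, were compared in the same cells. Cfl1 and Dstn, the other members of the cofilin family, stood at 679.2 and 670.4 CPM (log2 ratio -0.019) and at 465.9 and 549.9 CPM (0.24), while Cfl2 was at -1.46. Sec23b, the other form of the Sec23 subunit, had 27.58 and 25.55 CPM (-0.11) while Sec23a was at -1.33. Ets2 had 96.2 and 80.78 CPM (-0.25, -0.30 to -0.21), inside the interval of Ets1 at -0.33. Wasf2 had 109.4 and 107.9 CPM, with an interval that spanned 0 (-0.062 to 0.021).

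The relatives of Msn went apart. Ezr, which encodes ezrin, was higher in the induced library, at 230.3 and 354 CPM (0.62, 0.59 to 0.65). Rdx, which encodes radixin, was lower, at 218 and 120.6 CPM (-0.85, -0.89 to -0.82). Its longest annotated 3′ UTR has 2256 bases, and over all its coding transcripts it holds 0 matches to CAGTATT and 1 to CAGTGTT. Of the 7 paralogs that passed the filter, 1 was at least 1.5-fold higher and 1 at least 1.5-fold lower, and their median was -0.020, beside -0.105 for all genes. Among the 3 below the filter, Rnd2 (9.458 and 5.389 CPM, -0.81, -0.98 to -0.65) and Wasf1 (4.457 and 2.327 CPM, -0.94, -1.19 to -0.69) were lower. Rnd1 (2.034 and 2.541 CPM, 0.32, 0.027 to 0.62) was higher. Rnd2 thus stood further down than its member Rnd3, at -0.45. Rnd1 and Wasf1 hold the shifted 7-base match AGTATTA, with 1 and 2 copies, and the other 8 paralogs hold 0.

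**Figure D4:**
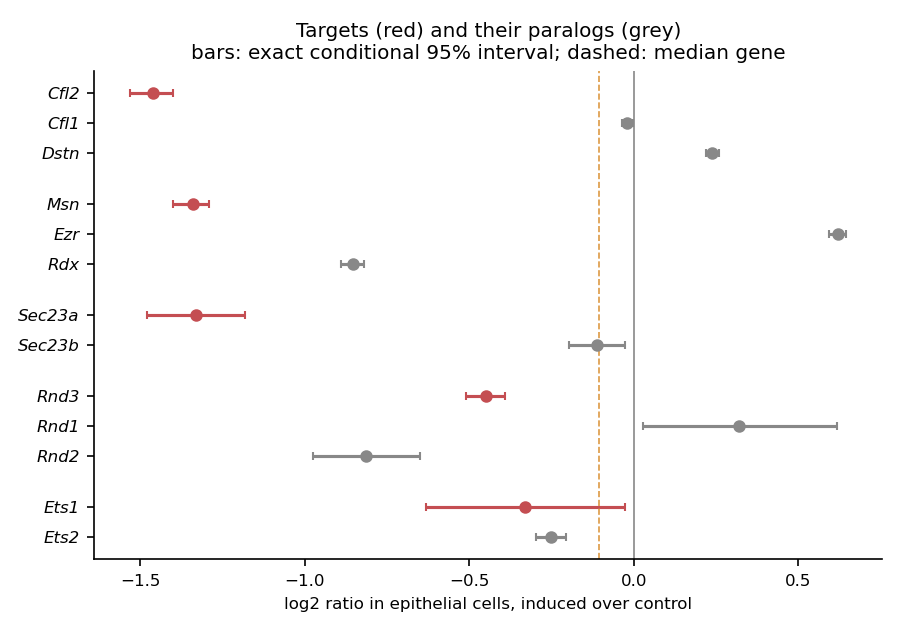
The log2 ratio of induced over control in epithelial cells (horizontal axis) is plotted for 5 members (red) and their paralogs (grey) with exact conditional 95% intervals as bars; the dashed line is the median gene. Cfl2 and Sec23a lie apart from their paralogs, while for Msn the paralogs lie on opposite sides, Ezr at 0.62 and Rdx at -0.85. Rnd2 lies below Rnd3 and Rnd1 above it, and Ets2 lies inside the interval of Ets1.

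The epithelial clusters were mostly made of 1 library, so cell makeup and genotype cannot be told apart over the whole class. Across the clusters with at least 30 cells of a library, Cfl2 ran from 48.67 to 110.6 CPM (median 82.63) in 12 control clusters and from 6.771 to 76.02 CPM (median 27.51) in 11 induced clusters. For both Cfl2 and Qki, 9 of the 11 induced clusters lay below the lowest control cluster. Qki ran from 64.28 to 182.2 CPM (median 143.2) in control and from 13.54 to 138.9 CPM (median 53.37) in induced clusters. For Sec23a, 10 of the 12 control clusters lay above the highest induced cluster, at 8.559 CPM. Msn overlapped more, from 8.126 to 201.1 CPM in control and from 0.797 to 141.6 CPM in induced clusters. The ranges of the libraries overlapped for each of the 10 members.

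Clusters with at least 30 cells of both libraries allow the comparison among cells of like profile, under the clustering used. Under library-centred clustering the hair matrix cluster held 68 and 75 cells, and dividing cells fell into clusters of nearly 1 library each, as they also did under the stricter cell filter, so the shared dividing cluster is absent there. In the hair matrix cluster, with 163 control and 167 induced cells, led by keratins of the hair shaft and inner root sheath, Cfl2 went from 66.64 to 21.78 CPM (log2 ratio -1.61, -1.96 to -1.28). Msn went from 109.7 to 28.97 CPM (-1.92, -2.21 to -1.64) and Qki from 151.6 to 62.08 CPM (-1.29, -1.49 to -1.09). Rnd3, Suz12 and Sec23a were lower there too, at -0.49, -0.57 and -0.93. In all, 6 of the 10 members had an interval below 0, beside 31.4% of genes. In this cluster 2.89% of genes were at least 2-fold lower, and Cfl2, Msn and Qki were the 3 of 5 members tested that were. The median gene was at 0.013.

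In a cluster led by cell-division genes, of 86 control and 198 induced cells, Cfl2 was at -1.55 (83.39 and 28.55 CPM), Qki at -1.65 (167.2 and 53.37 CPM), Msn at -1.07 (108.7 and 51.91 CPM) and Rnd3 at -0.75. Here 2.71% of genes were at least 2-fold lower with 5 CPM added, and 2 of the 5 members tested, Cfl2 and Qki. Suz12 stood at 100.8 and 98.62 CPM and Sec23a at 4.979 and 5.191 CPM, each with an interval that spanned 0. In all, 4 of the 10 members had an interval below 0, beside 24.2% of genes.

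In a pair of outer hair follicle clusters Cfl2, Qki and Msn had smaller differences than in the hair matrix and dividing clusters. In the one led by Pinlyp, Cst6 and Krt75 (176 and 173 cells), Cfl2 was at -0.75 (110.6 and 65.81 CPM), Qki at -0.68 (93.03 and 58.23 CPM), Msn at -0.42, Sec23a at -1.08 and Ets1 at -0.98 (11.1 and 5.629 CPM). Of the 10 members 6 had an interval below 0, beside 37.5% of genes. No member was 2-fold lower there with 5 CPM added, and 1.97% of genes were. In the one led by Sfrp1, Nppc and Tbx1 (559 and 54 cells), Qki stood at 142 and 138.9 CPM (-0.031, -0.46 to 0.37) and Cfl2 at 95.04 and 76.02 CPM (-0.32, -0.91 to 0.22), and the interval of Msn alone lay below 0 (-0.51, -0.93 to -0.11), beside 11.9% of genes. Gm13648 in induced cells was lowest in these same clusters, at 57.15 and 118 CPM, against 441.3 CPM in the hair matrix cluster and 554.6 CPM in the cycling cluster. Its part in the difference between clusters was not tested.

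**Figure D5:**
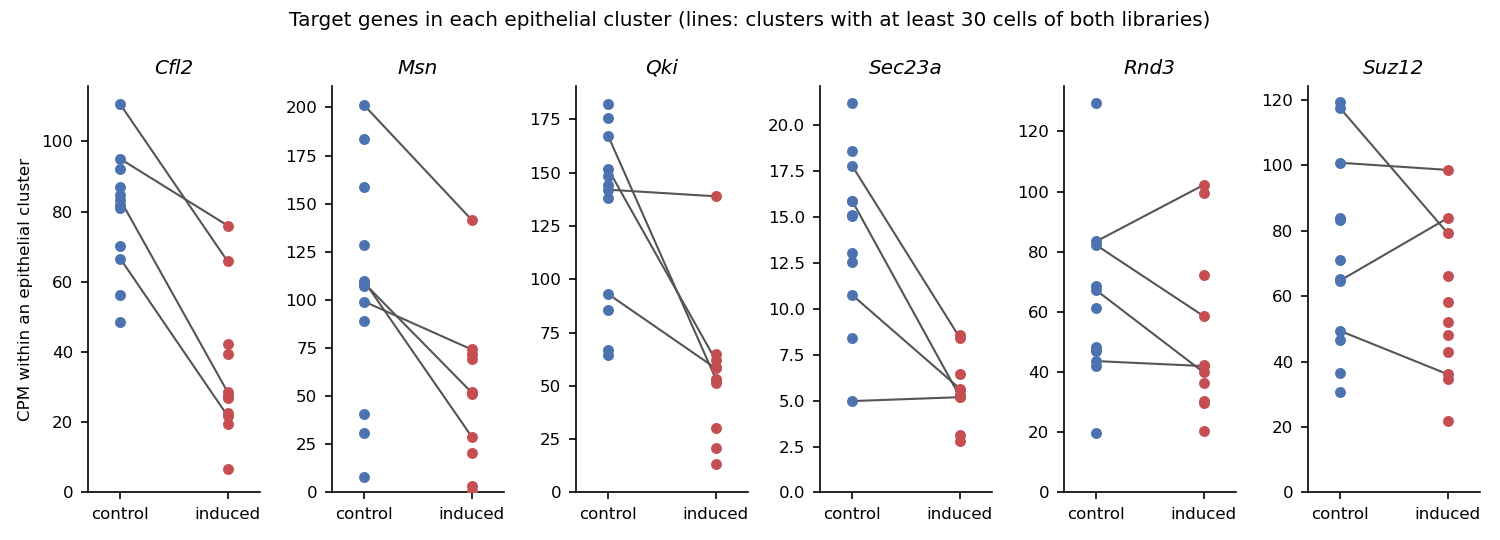
Each panel plots the level of 1 member in CPM (vertical axis, from 0) in every epithelial cluster with at least 30 cells of a library, control in blue and induced in red, with lines joining the 4 clusters that have at least 30 cells of both. For Cfl2 all 4 lines go down, from 66.64 to 110.6 CPM in control to 21.78 to 76.02 CPM in induced cells, while for Sec23a, Rnd3 and Suz12 they go both ways.

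The named epithelial subclasses rested on different clusters in the libraries, mainly cluster 7 of control against clusters 0, 14 and 15 of induced cells for the basal epidermis, and cluster 17 against clusters 11 and 20 for the suprabasal epidermis. Outer hair follicle cells were mainly clusters 2, 6, 9 and 10 in control and clusters 3, 4 and 10 in induced cells, and cluster 9, of 405 control and 8 induced cells, is led by cell-division genes. Their values are set side by side. In basal epidermis, with 505 control and 1569 induced cells, Qki stood at 178.7 and 46.55 CPM (-1.94), the lowest ratio it had in a named subclass. In suprabasal epidermis, with 261 and 469 cells, Msn stood at 26.07 and 2.583 CPM (-3.34, -3.78 to -2.91), a 10.1-fold difference. Suz12 did not follow: its interval spanned 0 in basal (46.06 and 49.06 CPM) and suprabasal cells (28.86 and 30.3 CPM), and was below 0 in outer hair follicle cells (84.38 and 58.44 CPM, -0.53). Without cluster 9 the Suz12 values there were 66.46 and 58.17 CPM (-0.19, -0.30 to -0.082). Rnd3 went the other way round, at -0.67 in basal and -0.70 in suprabasal cells, with an interval that spanned 0 in outer hair follicle cells (62.54 and 66.87 CPM) and lay above 0 without cluster 9 (0.17, 0.064 to 0.28).

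Outside the epithelium most members had intervals that spanned 0. In mesenchymal cells 8 of the 10 did, among them Zeb2 (905.7 and 898.6 CPM, -0.011), Zeb1 (-0.16), Cfl2 (-0.092) and Msn (-0.15). Sec23a was lower there, at 89.93 and 41.32 CPM (-1.12, -1.44 to -0.82), while Qki was higher, at 153.5 and 215.7 CPM (0.49, 0.34 to 0.64). An interval below 0 was found for 28.5% of genes and one above 0 for 27.4%, and 2.86% of genes were at least 2-fold lower, as Sec23a was. The collagens of fibroblasts, which are cargo of the COPII coat, stood lower as well, Col1a1 at 14510 and 6616 CPM and Col3a1 at 25390 and 13160 CPM. Over the 10 fibroblast markers, none at 0, the summed level was 62010 CPM in control and 32410 CPM in induced mesenchymal cells, and that of 18 epithelial markers, none at 0, was 863.5 and 2149 CPM. Pericyte markers went from 1459 to 2324 CPM, and adipocyte-lineage markers from 200.7 CPM (2 of 6 at 0) to 3053 CPM (none at 0), with a cluster led by Lpl, Fabp4 and Cfd holding 3 control and 78 induced cells. The part of these shifts in the Sec23a and Qki values was not tested.

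The single fibroblast cluster, with 524 control and 202 induced cells, makes up most of the control mesenchymal class. In it Zeb1 was lower at 73.05 and 50.59 CPM (-0.53, -0.96 to -0.12), Zeb2 higher at 850.1 and 1166 CPM (0.46), and Rnd3 higher at 77.73 and 119.2 CPM (0.62), beside intervals below 0 for 19.7% and above 0 for 23.0% of genes. Sec23a (-0.997) was lower and Qki (0.52) higher, as in the whole class. Zeb1 and Zeb2, which both carry matches, thus stood on opposite sides in these cells. Gm13648 in induced fibroblasts was at 2.90% of its epithelial level, under the 4.42% of the epithelial markers. Under the stricter cell filter these fibroblasts formed 2 clusters, one of 316 control and 149 induced cells and one, led by Lum and Itih5, of 162 and 11 cells. Lum, a proteoglycan gene, stood at 4146 and 2101 CPM in the single cluster, and the part of this makeup in the values was not tested.

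In endothelial cells, where 22.6% of genes had an interval below 0, the 1 member that did was Sec23a, from 33 and 11 UMIs (29.0 and 13.6 CPM). In this class lymphatic markers (5, none at 0) went from 121.3 to 1581 CPM and adipocyte-lineage markers (4 of 6 at 0 in both libraries) from 3070 to 12480 CPM, and their part was not tested. The Sec23a call was lost after thinning, with 0 members lower, and with doublets kept 3 members were lower and 1 higher. Zeb1, Ets1 and Msn, each highest in this class, had log2 ratios of 0.064, 0.050 and -0.12 with intervals that spanned 0. In melanocytes, intervals above 0 were found for 14.0% of genes and for 2 members, Zeb2 (348.6 and 470.9 CPM, 0.43) and Ets1 (196.9 and 267 CPM, 0.44). Intervals below 0 were found for 14.7% of genes and for Msn (278.9 and 205.5 CPM, -0.44). Melanocyte markers (8, none at 0) went from 13350 to 25320 CPM in these cells and epithelial markers from 748.6 CPM (2 of 18 at 0) to 1497 CPM (none at 0), and their part was not tested. After thinning, 1 member was higher and 0 lower. No member was at least 1.5-fold lower in melanocytes with 5 CPM added, and 7.53% of genes were.

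The wider pathways of the members were followed in epithelial cells by gene lists, with counts at 1.5-fold, to be read against 13.2% of all genes lower and 6.35% higher. Of 20 other published targets of the family, 13 carry the 7-base match and 6 passed the filter, of which 1 was lower, the transcription factor Klf9 (46.49 and 25.83 CPM), and 0 higher, with a median of -0.23. Crtap, a collagen-modifying protein with 2 matches, was below the filter and stood at 23.11 and 5.44 CPM (-2.09, -2.23 to -1.95), further down than any member. It was named after its values were seen, and of the 14 genes below the filter 4 had an interval below 0 and 3 above, among them Sox2 (8 and 51 UMIs) and Tubb3 (79 and 140 UMIs) with 1 match each. Of 19 epithelial genes known to be repressed by ZEB factors, 10 were tested, 4 were higher and 1 lower, with a median of 0.27. Rab25, a recycling GTPase, stood at 229 and 528.5 CPM, Ovol1 at 37.42 and 70.7 CPM, and Grhl2, the lower one, at 45.15 and 25.42 CPM. Cdh1, which encodes E-cadherin and is the classic gene of this list, stood at 139.6 and 168.8 CPM (0.27).

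Among 9 tested genes of the cofilin pathway 1 was higher, the kinase Limk2, which inactivates cofilin (74.97 and 124.3 CPM), and 0 lower, with a median of -0.019. Of 7 tested partners of Suz12 in Polycomb repressive complex 2, 1 was lower, the methyltransferase Ezh2 (103.1 and 54.76 CPM, -0.91), and 0 higher, with a median of -0.26. Of 6 tested COPII genes, 1 was lower, Sec13 (81.01 and 48.64 CPM), and 0 higher, with a median of -0.19. Of 7 tested genes of the WAVE complex and its ERM neighbours, 1 was higher, Ezr, and 2 lower, Rdx and Cyfip1 (86.58 and 53.67 CPM). Of 3 tested mesenchymal genes, 1 was higher, Sparc (173.8 and 346.6 CPM), and 0 lower. The machinery that makes and uses microRNAs had 0 of 7 tested genes past 1.5-fold in either direction, with a median of 0.066.

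The genes whose profile over 18 class and library averages was most like that of each member, by Pearson correlation of log2 CPM with 5 CPM added, were named as a description. They were Grb10 (0.981) for Zeb1, Cnrip1 (0.984) for Zeb2, B4gat1 (0.974) for Cfl2, Src (0.89) for Rnd3, and Adgre5 (0.969) for Ets1. Clic4 (0.938) was nearest to Msn, Smarcd1 (0.925) to Qki, Col3a1 (0.937) to Sec23a and Ncapd3 (0.919) to Suz12. The averages share libraries, depth and, for nested classes, cells. Wasf3 stayed at or under 11.16 CPM in all of them and was not ranked.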

How the data were processed

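The deposited values were raw UMI counts per gene and barcode, made by the authors with Cell Ranger (version 6.0.0, per the file headers) on build mm10, per the submitters' processing notes. Cell-calling settings and annotation are not given in the sources used here. The 2 libraries held 100409201 and 119705137 UMIs in 9072 and 9114 barcodes. Barcodes with at least 1000 UMIs, 500 genes and under 15% mitochondrial UMIs were kept, and the 7% with the highest Scrublet scores per library were removed, because the automatic threshold marked only 3 and 1 barcodes. Cells of both libraries were clustered together (scanpy 1.11.5, 2000 variable genes, 30 principal components, 15 neighbours, Leiden at resolution 1.0) without the members, the listed genes and Gm13648. A cluster was called epithelial at 3000 CPM of keratins, and other names needed at least 3 raised markers. A cluster of 13 and 206 cells with a median of 1064 UMIs stayed unnamed and was left out. These naming limits were chosen once the data were in view.

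UMIs were summed per class and library. Levels have exact Poisson intervals, ratios exact conditional binomial intervals, and shares of cells, taken after thinning to 2000 UMIs per cell, exact Clopper-Pearson intervals, all at 95%. Median ratios and fold counts used CPM plus 5 and genes averaging at least 20 CPM. The computations were tested on simulated data. Matches were searched on the message strand of GENCODE vM21 3′ UTRs, as the union over coding transcripts. All 10 members were described, and from each list the paralogs and at most 2 genes in each direction. Cdh1, Crtap, Sox2 and Tubb3 were named besides. The members and lists were chosen with earlier results of these data known. Alternatives were a stricter cell filter, doublets kept, other clusterings, thinning, other scalings, single clusters, other filters and other match definitions.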

Additional observations from a re-analysis of the deposited data

Results flagged for a closer look

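For 2 members the libraries differed in opposite directions in 2 cell classes, with counting intervals on either side of 0. Qki had a log2 ratio of induced over control of 0.49 in mesenchymal cells and -1.49 in epithelial cells. Ets1 had a log2 ratio of 0.44 in melanocytes and -0.33 in epithelial cells, where it had 182 and 184 UMIs. The epithelial Ets1 interval spanned 0 relative to the median gene (-0.53 to 0.080), with totals without the most abundant genes (-0.57 to 0.041) and after thinning (-1.52 to 0.66). With 1 library per genotype, how far the classes differ was not tested.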

How the results depend on the processing

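No paired analysis was possible because each group is 1 library. In 8 settings (the reported one included) the whole epithelial class was used, though the stricter filter and thinning left some of its cells out. Over these the log2 ratios ran from -1.51 to -1.37 for Qki, -1.48 to -1.36 for Cfl2, -1.36 to -1.18 for Msn, -1.35 to -1.22 for Sec23a, -0.46 to -0.26 for Rnd3, -0.45 to -0.22 for Suz12, -0.42 to -0.22 for Ets1, -1.56 to -0.070 for Zeb1 and -0.58 to 0.61 for Zeb2. Within single clusters 5 members changed sign, each with an interval that spanned 0: Zeb2 (0.50) in the cluster led by Pinlyp, Rnd3 (0.29) and Suz12 (0.37) in the cluster led by Sfrp1, Ets1 (1.74) in the hair matrix cluster and Sec23a (0.060) in the cycling cluster. The number of members lower in epithelial cells, 7, was 1 within the cluster led by Sfrp1 and 4 within the cycling cluster; it was 8 with doublets kept, and 6 after thinning, relative to the median gene and without the most abundant genes. The cause was not tested. Leaving cluster 9 out of the outer hair follicle cells was chosen after seeing the data. The members' median minus that of all genes, -1.14, was -1.03 after thinning, -1.21 with 1 CPM added, -0.96 with a filter of 5 CPM (6 members) and -0.40 with no filter (10 members). With doublets kept, 2 members were lower in mesenchymal cells, and 3 lower and 1 higher in endothelial cells. After thinning, 2 were lower in mesenchymal cells, 0 in endothelial cells and 0 in melanocytes, where 1 was higher. Counted over all 10 members without a filter, 4, 5 and 5 were at least 2-fold above epithelial cells in mesenchymal cells, endothelial cells and melanocytes. No share of all genes was taken without the filter, with doublets kept or after thinning, so nothing is read from these counts about the members. On the longest annotated 3′ UTR alone 9 members held the 7-base match, since the longest one of Rnd3 holds 0. Depth limits Zeb1, Zeb2 and Wasf3 in epithelial cells and Sec23a in the small classes.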

Other observations

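Within the induced library, epithelial cells were split by their Gm13648 UMIs at 2000 UMIs per cell into 1691 cells with 0, 1064 with 1 and 1083 with 2 or more, a split chosen after the data had been seen. Across these, Qki stood at 46.25, 43.75 and 48.48 CPM and Msn at 41.08, 41.48 and 42.23 CPM over all UMIs of the cells, and on the thinned counts Qki stood at 60.02, 51.22 and 54.48 CPM and Msn at 56.77, 49.81 and 47.55 CPM, each with overlapping intervals. Even the cells with 0 were below the 130.1 and 105.2 CPM of control epithelial cells. Cfl2 stood at 31.21 CPM (29.52 to 32.97), 26.47 CPM (24.62 to 28.42) and 26.37 CPM (24.52 to 28.33), and on the thinned counts at 41.1 CPM (34.55 to 48.53), 26.79 CPM (20.29 to 34.7) and 24.47 CPM (18.33 to 32.01). In outer hair follicle cells, where 825, 344 and 276 cells entered, Cfl2 went from 47.38 to 33.95 and 28.47 CPM while Qki stood at 64.02, 61.29 and 62.01 CPM. Of the 825 cells with 0, 155 belong to the cluster led by Pinlyp, where Cfl2 stood at 69.75 CPM. In basal epidermis Cfl2 stood at 30.48, 28.51 and 27.38 CPM with overlapping intervals, and in hair matrix cells at 20.27, 16.56 and 28.3 CPM. A count of 0 at this depth does not show that a cell lacks the transcript, and these strata differ in cluster makeup.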
